A study of Mus musculus with 8 samples.

Results

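The cytosolic ribosomal protein genes were described in soleus muscle, the slow calf muscle used in standing, from Ts65Dn mice and from WT mice of their colony. A gene was taken where a probe set was annotated to exactly 1 symbol, and that symbol was Rplp0, Rplp1, Rplp2, Rpsa, or Rpl or Rps followed by a number with at most 1 of the endings a, l and x. Pseudogene symbols ending in -ps and the Rps6k kinases were left out. This gave 59 of 19938 measured genes, 37 of the large (60S) subunit and 22 of the small (40S) subunit by symbol, covered by 215 probe sets. Per gene, the probe set with the highest mean over the 8 arrays was used. A further 24 symbols of the same form in the RefSeq gene table, among them Rpl3, Rpl11, Rpl13a, Rpl35a, Rpl39, Rps26 and Rps27, were not analysed here.

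The 4 Ts65Dn mice carried the extra marker chromosome of this Down syndrome model, which adds an extra copy of distal mouse chromosome 16 and of the centromeric end of chromosome 17. The 4 WT mice were colony controls, labelled B6EiC3SnF1/J, a mix of the B6 and C3H backgrounds. All 8 were males of about 5 months, muscles were taken in the basal state without treatment, and each mouse gave 1 Affymetrix Mouse Gene 1.0 ST array. The values come from whole muscle, so that fewer cells of a type and less RNA per cell cannot be told apart. Of the 59 genes, 0 lie in the trisomic segments. Rpl24 and Rpl39l lie on chromosome 16 and Rpl3l, Rpl10a, Rpl36, Rps2, Rps10, Rps18 and Rps28 on chromosome 17, in each case outside the segment.

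The cytosolic ribosome is built from ribosomal RNA and one copy of most of its proteins, and its messenger RNAs are among the most abundant in a cell. These messenger RNAs usually begin with an unbroken run of C and T letters, the 5′ terminal oligopyrimidine (TOP) tract, through which the kinase mTOR and the RNA-binding protein Larp1 control their translation and stability. In skeletal muscle, the number of ribosomes sets the capacity for protein synthesis, and ribosome production increases when muscle grows. Ribosomal protein promoters often hold sites for factors of the ETS family, such as Gabpa, which is itself encoded in the trisomic part of chromosome 16.

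RefSeq promoter windows (GRCm38.p6, 250 bases before to 50 after the annotated start) were given for 47 of the 59 genes. The 8 stretches that follow show 30 bases on each side of the start, on the strand of the gene. They are examples of long and short C and T runs at or near a start, in genes described below or on chromosome 17. The capitals mark the longest unbroken run of C and T that reaches within 5 bases of the start.
Rpl7a, chr2:26910777-26910836, plus strand: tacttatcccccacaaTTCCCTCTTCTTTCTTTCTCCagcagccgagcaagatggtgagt
Rpl27a, chr7:109519165-109519224, plus strand: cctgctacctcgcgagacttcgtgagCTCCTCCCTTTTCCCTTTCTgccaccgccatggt
Rpl14, chr9:120571487-120571546, plus strand: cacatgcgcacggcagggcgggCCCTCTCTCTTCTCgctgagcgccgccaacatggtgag
Rps10, chr17:27635215-27635274, minus strand: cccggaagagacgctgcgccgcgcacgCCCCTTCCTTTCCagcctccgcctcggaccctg
Rps18, chr17:33955636-33955695, minus strand: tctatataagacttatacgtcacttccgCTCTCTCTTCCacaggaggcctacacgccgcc
Rps6, chr4:86857338-86857397, minus strand: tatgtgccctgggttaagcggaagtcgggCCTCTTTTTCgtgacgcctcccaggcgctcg
Rpl26, chr11:68901536-68901595, plus strand: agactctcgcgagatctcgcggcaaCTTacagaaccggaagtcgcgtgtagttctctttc
Rpl3l, chr17:24727796-24727855, plus strand: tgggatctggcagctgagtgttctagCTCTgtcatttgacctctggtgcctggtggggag
The run was 21 letters in Rpl7a and 20 in Rpl27a, against 3 in Rpl26 and 4 in Rpl3l, the muscle-specific paralog of Rpl3. A run of 8 or more was found in 14 of 47 genes (29.8%), and in 9.30% of the 27025 windows of all genes searched the same way. Such a run need not hold the start base, and those of Rpl26 and Rpl3l did not. A run of 5 or more that held the start base was found in 13 of 47 genes (27.7%), against 9.95% of all windows. Runs farther from the annotated start were not counted, and the stretch of Rpl26 ends in such a run. Whether the transcripts in soleus begin at the annotated starts was not tested.

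The letters CGGAAG, the core read by ETS factors, were searched on both strands of the same windows. They were found in 32 of 47 ribosomal protein genes (68.1%) and in 17.2% of all windows. The next 3 stretches show a match in capitals in genes described below, with the reverse-strand form CTTCCG in Rplp2.
Rpl10, chrX:74270581-74270640, plus strand: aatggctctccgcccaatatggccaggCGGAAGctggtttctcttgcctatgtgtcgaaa
Rpsa, chr9:120127678-120127737, plus strand: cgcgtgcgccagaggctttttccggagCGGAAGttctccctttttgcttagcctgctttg
Rplp2, chr7:141447516-141447575, plus strand: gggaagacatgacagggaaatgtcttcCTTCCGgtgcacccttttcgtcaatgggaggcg
The match lay 208 bases before the start in Rpl10, 61 in Rpsa and 108 in Rplp2, while in Rpl26 it began at base 6 of the transcript and stands in lower case in the stretch given above. The core of the factor YY1, AAGATGG, was present in 6.38% of the ribosomal protein windows and 6.48% of all windows, and TATAAA in 10.6% and 14.2%. No window held overlapping CGGAAG and AAGATGG matches among the ribosomal protein genes. A match describes letters in a window and shows no binding.

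The arrays of the groups differed in shape. The interquartile range over all genes was 2.70 to 2.81 in Ts65Dn arrays, against 2.48, 2.23, 2.09 and 2.48 in WT arrays 1 to 4, so that WT arrays 2 and 3 stood apart. The array medians were 4.57 to 4.65 in Ts65Dn arrays and 4.72 to 4.86 in WT arrays. With this difference, the median fold change moved with level: other genes had a median log2 fold change (Ts65Dn minus WT) of -0.22 for mean levels up to 5, 0.31 between 7 and 9, and 0.03 above 11. Values are therefore also given relative to the 100 genes nearest in mean level that were neither ribosomal protein genes nor trisomic (level-matched), and without WT arrays 2 and 3.

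The ribosomal protein genes differed little between Ts65Dn and WT soleus. Of the 59 genes, 0 were higher and 0 lower in Ts65Dn at an adjusted p under 0.05 in limma with Benjamini-Hochberg adjustment over all 19938 genes, where 2.32% of all genes were called higher and 2.94% lower. At an unadjusted p under 0.05 there were 5 of 59 (8.47%), 2 higher and 3 lower, against 34.8% of all genes. Above a mean level of 9 the share was 2.13% of ribosomal protein genes, against 14.3% of other genes. At or below level 9, where most genes lie, it was 33.3% of ribosomal protein genes, near the 34.8% of all genes. The median log2 fold change over the 59 was -0.014, with 26 values above 0 and 33 below, and that over all genes was -0.10. It was -0.055 after level matching and -0.039 without WT arrays 2 and 3, and -0.016 with both changes. Centring every array on its median over all genes moved it to 0.17, since the WT array medians were higher. These p-values measure the spread between mice, with 1 array each.

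By array, the median deviation of the 59 genes from their own means was 0.004, -0.029, -0.010 and 0.016 in Ts65Dn arrays 1 to 4, against -0.005, -0.066, 0.024 and 0.069 in WT arrays 1 to 4. The Ts65Dn arrays all lay inside the range of the WT arrays, whose lowest and highest were arrays 2 and 4. The large-subunit genes had a median log2 fold change of -0.014 (17 of 37 above 0) and the small-subunit genes one of -0.010 (9 of 22 above 0). Over the 8 arrays, the median Pearson correlation of the 1711 pairs of ribosomal protein genes was 0.15, with quartiles of -0.20 and 0.50. With the group means removed it was 0.20, and pairs of other genes were not set beside it. Every pair shares the same 8 arrays and their normalization.

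**Figure D1:**
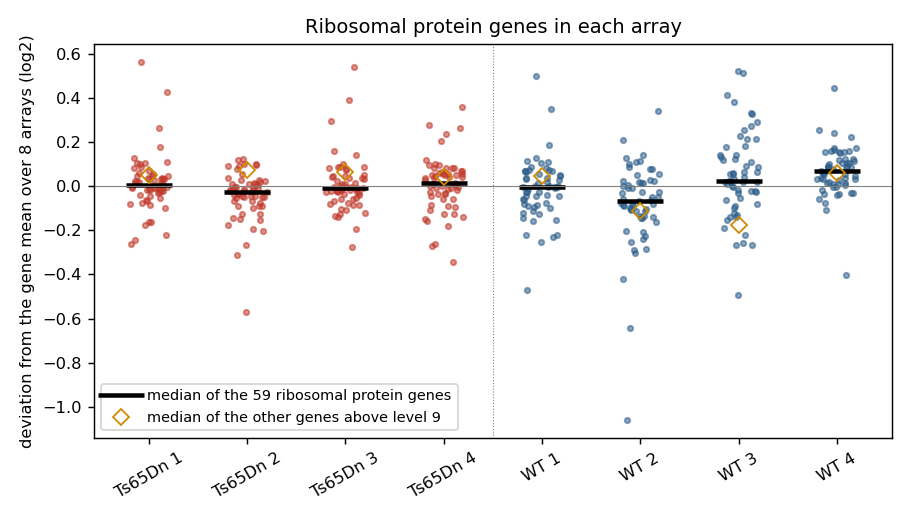
Deviation of each of the 59 ribosomal protein genes (dots) from its mean over the 8 arrays, in log2 units, for the 4 Ts65Dn arrays (red, left) and the 4 WT arrays (blue, right); black bars are the medians of the 59 genes and open diamonds the medians of the other genes above a mean level of 9. The black bars stay between -0.066 and 0.069 in all 8 arrays.

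In the values as deposited, the spread between arrays was small enough to bound most genes closely. The 95% intervals of limma had a median half-width of 0.25 on the log2 scale, and in 52 of 59 genes the whole interval lay within 1.5-fold either way. Of the 59 intervals, 54 included 0. The intervals do not cover the choice of normalization, and median centring changed the sign of the fold change in 26 of the 59 genes. The fold change itself was under 0.25 in size in 53 genes and under 0.1 in 33. The median SD within groups was 0.099 for the ribosomal protein genes and 0.12 for genes of like level, and 47 of the 59 had a smaller SD than the median of their like-level genes. Of the 59, 34 had a mean level above 11, where the highest of all genes was 12.5. The part of this brightness in the narrow intervals was not tested.

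**Figure D2:**
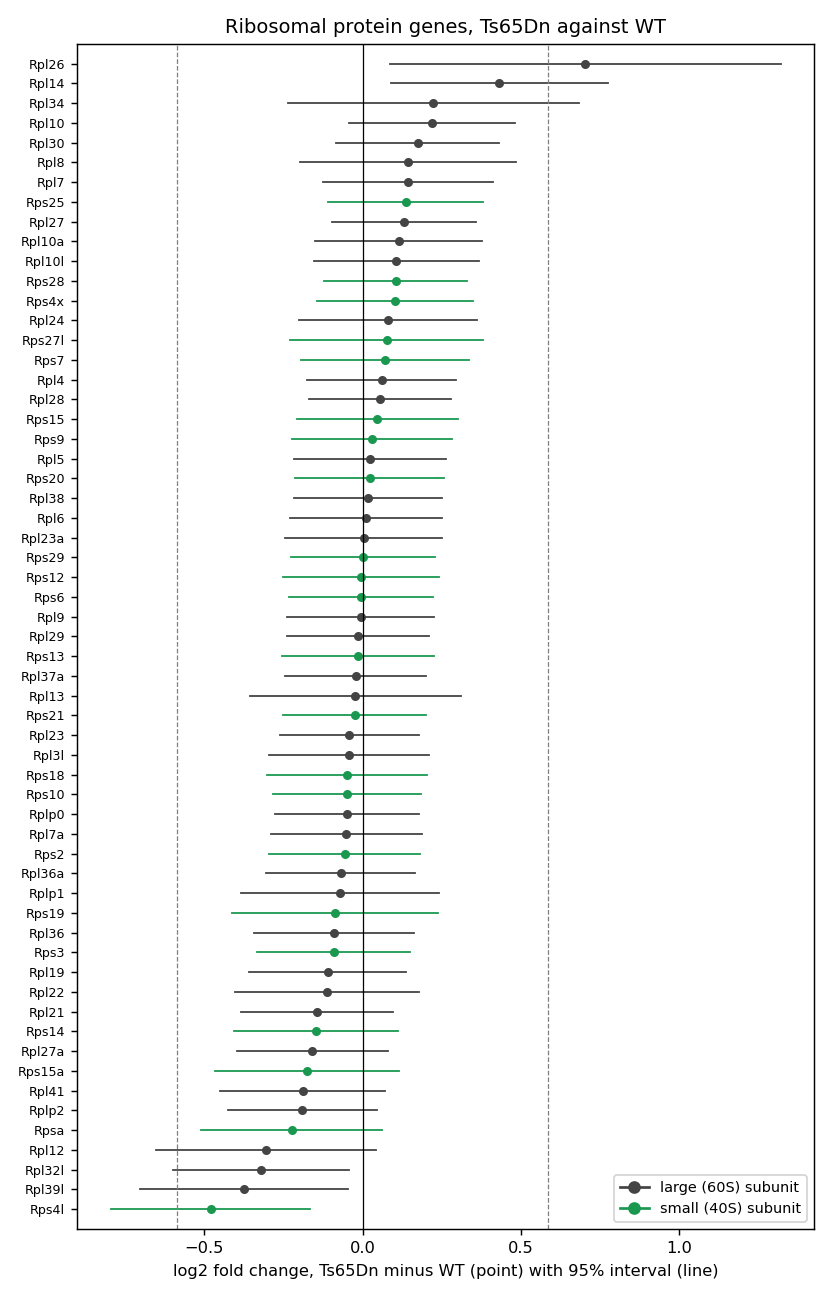
Log2 fold change (Ts65Dn minus WT, horizontal axis) of each of the 59 genes, sorted, with its 95% limma interval; dark points are Rpl and green points Rps symbols, and dashed lines mark 1.5-fold either way. The points run from -0.48 for Rps4l to 0.70 for Rpl26, and 54 of the 59 intervals include 0.

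The highest fold change belonged to Rpl26, a large-subunit protein known also to bind the p53 messenger RNA. Rpl26 values (log2, as all values here) were 10.93, 10.46, 10.91 and 10.57 in Ts65Dn muscles, against 9.90, 9.31, 10.89 and 9.96 in WT muscles. Of the WT arrays, 3 lay below all Ts65Dn arrays and WT array 3 lay among them, so that the groups overlapped. The mean was 10.72 ± 0.24 in Ts65Dn and 10.01 ± 0.65 in WT (SD, n = 4 each), a log2 fold change of 0.70 (95% interval 0.09 to 1.32, 1.63-fold) with a limma Benjamini-Hochberg adjusted p of 0.108. The WT range of 1.58 was the widest of any of the 59 genes. The fold change was 0.66 after level matching and 0.79 without WT arrays 2 and 3, and the adjusted p ranged between 0.063 and 0.31 over 19 alternative settings.

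Rpl14, a large-subunit protein with one of the long C and T runs shown above, had the smallest p among genes with a positive fold change. Its values were 8.85, 8.55, 8.39 and 8.78 in Ts65Dn muscles, against 8.28, 8.14, 7.93 and 8.50 in WT muscles. WT arrays 1, 2 and 3 lay below all Ts65Dn arrays, while WT array 4 lay above Ts65Dn array 3. Rpl14 had a log2 fold change of 0.43 (95% interval 0.09 to 0.78) with a limma Benjamini-Hochberg adjusted p of 0.088. It was 0.15 after level matching and 0.26 without WT arrays 2 and 3.

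Rpl10, the large-subunit protein that completes the peptidyl transferase centre, had values of 11.28, 11.38, 11.39 and 11.55 in Ts65Dn muscles, against 11.32, 11.15, 11.02 and 11.23 in WT muscles. Ts65Dn arrays 2, 3 and 4 lay above all WT arrays, and Ts65Dn array 1 lay below WT array 1. Its log2 fold change was 0.22 (95% interval -0.04 to 0.48, adjusted p = 0.204 in limma). Of the other positive values, Rps25 had 0.14 and Rpl7 0.14 (adjusted p = 0.387 and 0.408 in limma). Without WT arrays 2 and 3, Rps25 had 0.05 and Rpl7 -0.01, which turned its direction. Rps25, a small-subunit protein used by some viral and cellular internal ribosome entry sites, and Rpl7 overlapped between the groups.

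Rps4l had the lowest fold change and the smallest p of the 59 genes. RefSeq lists it as a transcribed pseudogene, so it enters by its symbol. Its values were 4.77, 4.36, 4.66 and 4.99 in Ts65Dn muscles, against 5.12, 5.28, 5.11 and 5.19 in WT muscles. All 4 Ts65Dn arrays lay below all 4 WT arrays, and the Ts65Dn range of 0.63 was the widest of the 59 genes in that group. The log2 fold change was -0.48 (95% interval -0.80 to -0.17) with a limma Benjamini-Hochberg adjusted p of 0.061. It was -0.21 after level matching, and the second probe set of Rps4l had -0.13.

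Rpl32l, named for its likeness to Rpl32, had values of 6.92, 6.99, 7.20 and 6.90 in Ts65Dn muscles, against 7.19, 7.24, 7.54 and 7.32 in WT muscles. Ts65Dn arrays 1, 2 and 4 lay below all WT arrays and Ts65Dn array 3 lay just above WT array 1. The log2 fold change was -0.32 (95% interval -0.60 to -0.04, adjusted p = 0.106 in limma), and -0.60 after level matching (adjusted p = 0.076), where the adjusted p over 19 alternatives ranged between 0.076 and 0.43. Rpl12, a protein at the base of the stalk, had 5.30, 5.21, 5.23 and 5.09 in Ts65Dn muscles, against 5.86, 5.11, 5.50 and 5.58 in WT muscles. WT array 2 lay inside the Ts65Dn range, and the log2 fold change of Rpl12 was -0.31 (95% interval -0.65 to 0.04, adjusted p = 0.187 in limma).

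**Figure D3:**
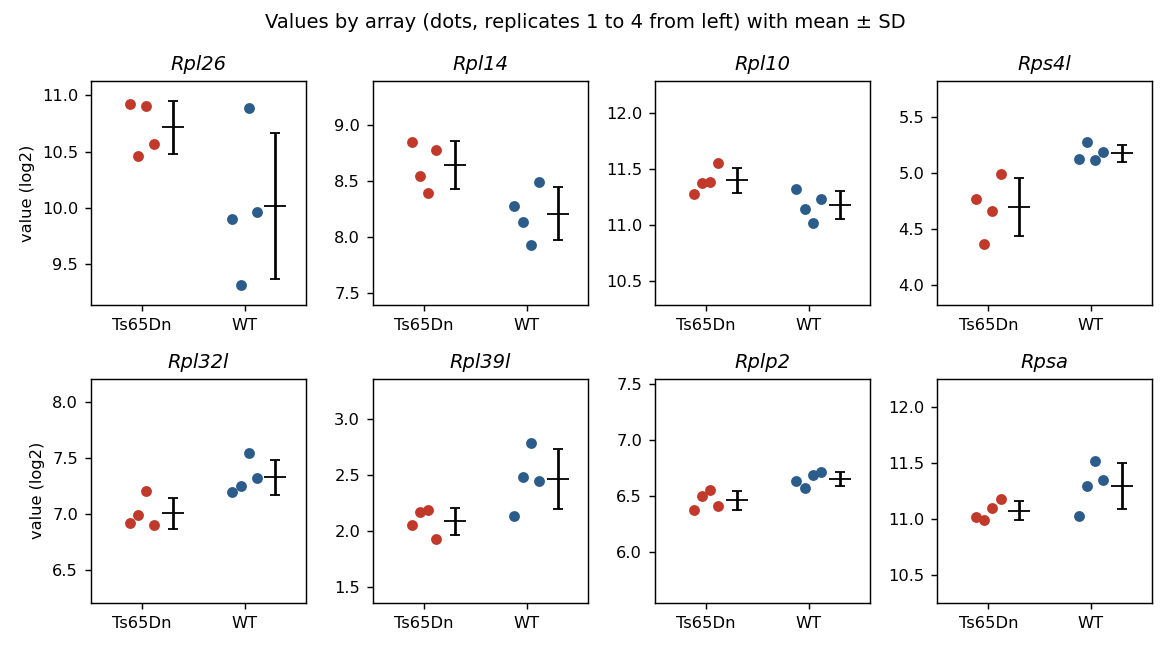
Log2 values of 8 ribosomal protein genes in the 4 Ts65Dn arrays (red, left of each panel) and the 4 WT arrays (blue, right), with the mean ± SD of each group; every panel spans 2 log2 units. Rps4l and Rplp2 show no overlap between the groups, and in Rpl26 WT array 3 lies among the Ts65Dn arrays.

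The stalk proteins Rplp0, Rplp1 and Rplp2 form the arm of the large subunit that recruits translation factors. Rplp2 had 6.38, 6.51, 6.56 and 6.41 in Ts65Dn muscles, against 6.64, 6.57, 6.69 and 6.71 in WT muscles. All Ts65Dn arrays lay below all WT arrays, with Ts65Dn array 3 and WT array 2 nearly touching. The log2 fold change of Rplp2 was -0.19 (95% interval -0.43 to 0.05, adjusted p = 0.221 in limma), and -0.51 after level matching (adjusted p = 0.076, in a range of 0.076 to 0.97 over 19 alternatives). Rplp0, often used as a reference gene, had a log2 fold change of -0.05 (95% interval -0.28 to 0.18), and Rplp1 one of -0.07 (95% interval -0.38 to 0.24).

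Rpsa, a small-subunit protein also known as a laminin receptor, had 11.02, 10.99, 11.10 and 11.17 in Ts65Dn muscles, against 11.02, 11.30, 11.51 and 11.34 in WT muscles. WT array 1 lay inside the Ts65Dn range and the other WT arrays above it. Rpsa had a log2 fold change of -0.22 (95% interval -0.51 to 0.06, adjusted p = 0.231 in limma), but -0.11 without WT arrays 2 and 3 and -0.08 as the mean of its probe sets. Rpl41, the smallest protein of the ribosome, gave a similar pattern, with 11.17, 11.16, 11.18 and 11.11 in Ts65Dn muscles, against 11.14, 11.30, 11.52 and 11.42 in WT muscles. WT array 1 was again the array among the Ts65Dn values, and the log2 fold change was -0.19 (95% interval -0.45 to 0.07).

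Several ribosomal proteins have paralogs whose use differs between tissues. Rpl3l, made in heart and skeletal muscle, had 10.54, 10.48, 10.58 and 10.42 in Ts65Dn muscles, against 10.64, 10.48, 10.40 and 10.68 in WT muscles. The Ts65Dn arrays of Rpl3l lay inside the WT range, with a log2 fold change of -0.04 (95% interval -0.30 to 0.21). Rpl39l and Rpl10l, retrogene paralogs best known from testis, were dim. Rpl39l had 2.05, 2.17, 2.19 and 1.93 in Ts65Dn muscles, against 2.13, 2.48, 2.79 and 2.44 in WT muscles, with WT array 1 inside the Ts65Dn range. Its log2 fold change was -0.37 (95% interval -0.70 to -0.05, adjusted p = 0.108 in limma), and without WT array 1 it was -0.48 with an adjusted p of 0.048, in a range of 0.048 to 0.48 over 18 alternatives. Rpl10l had a log2 fold change of 0.11 (95% interval -0.15 to 0.37), Rps27l, a p53 target, 0.08 (-0.23 to 0.38), Rpl36a -0.07 (-0.30 to 0.17) and Rpl22 -0.11 (-0.40 to 0.18). All 4 of these intervals included 0 and lay within 1.5-fold either way.

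Rps6, Rps19, Rpl5, Rps4x and Rpl24 each differed by less than the SD of their own WT arrays. Rps6, the substrate of the S6 kinases downstream of mTOR, had 11.68, 11.64, 11.67 and 11.75 in Ts65Dn muscles, against 11.68, 11.61, 11.75 and 11.72 in WT muscles, and the ranges of the groups overlapped almost fully. Its log2 fold change was -0.01 (95% interval -0.23 to 0.22). Rps19 and Rpl5, both mutated in Diamond-Blackfan anaemia, had log2 fold changes of -0.09 (95% interval -0.41 to 0.24) and 0.02 (-0.22 to 0.26). Rps4x, encoded on the X chromosome, had 0.10 (95% interval -0.14 to 0.35). Rpl24, a large-subunit protein encoded on chromosome 16 outside the trisomic segment, had 0.08 (95% interval -0.20 to 0.36).

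The groups did not overlap in 6 of 59 genes (10.2%), against 22.7% of all genes. Above a mean level of 9 the share was 6.38% of ribosomal protein genes and 13.8% of other genes. At or below level 9, where most genes lie, it was 25% of ribosomal protein genes, near the 22.7% of all genes. Rps4l, Rplp2 and Rpl23 lay lower in all 4 Ts65Dn arrays than in all 4 WT arrays, and Rpl27, Rpl30 and Rps28 lay higher. The separations were narrow. Rpl27 had 11.74, 11.75, 11.69 and 11.70 in Ts65Dn muscles, against 11.58, 11.60, 11.51 and 11.66 in WT muscles, a log2 fold change of 0.13 (95% interval -0.10 to 0.36). Rpl30, whose probe set was dim, had 3.51, 3.27, 3.27 and 3.29 in Ts65Dn muscles, against 3.15, 3.01, 3.23 and 3.26 in WT muscles, where Ts65Dn array 1 stood clear of the rest. The log2 fold changes were 0.17 for Rpl30, 0.10 for Rps28 and -0.04 for Rpl23, and each 95% interval included 0.

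Most ribosomal protein probe sets were bright, and the comparison with other genes depended on level. Above a mean level of 9, 47 ribosomal protein genes had a median log2 fold change of -0.005 and 1 of them (2.13%), Rpl26, had an unadjusted p under 0.05. Of the 939 other genes this bright, the median was 0.11, 14.3% had an unadjusted p under 0.05, and 18 were called higher and 0 lower by limma. The 12 ribosomal protein genes at or below level 9 had a median of -0.13, and of -0.28 after level matching. Of these 12, 33.3% had an unadjusted p under 0.05, 1 higher and 3 lower, beside 34.8% of all genes. Between levels 7 and 9, the 6 ribosomal protein genes had a median of -0.05, where 2112 other genes had 0.31. Brightness depends on the probes as well as on the RNA, so level here is a property of a probe set and does not rank genes by abundance.

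**Figure D4:**
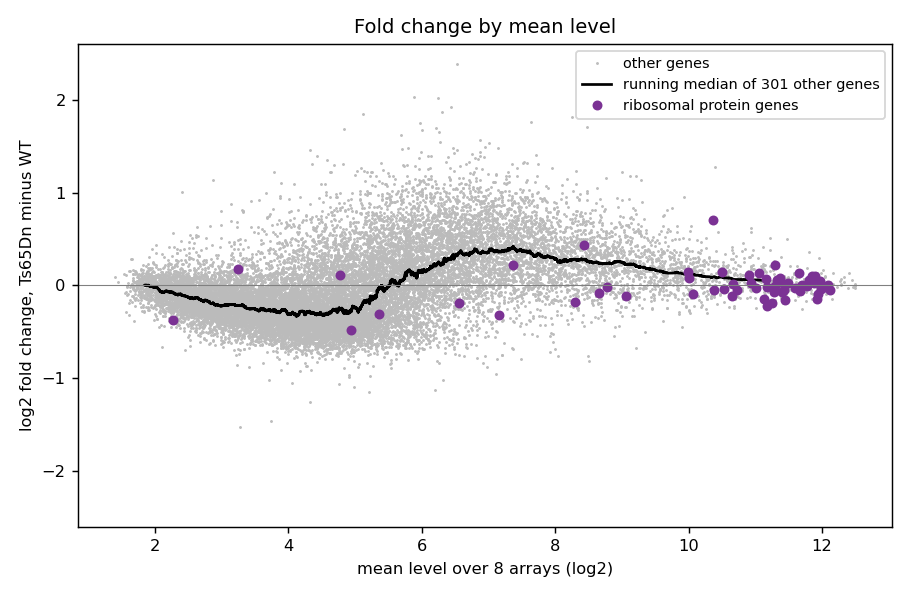
Log2 fold change (Ts65Dn minus WT, vertical axis) against the mean level over the 8 arrays (log2, horizontal axis) for the 59 ribosomal protein genes (purple) and the other genes (grey), with the running median of the other genes (black line). The black line lies below 0 at the dim end and above 0 between 7 and 9, and most purple points lie at the bright end near 0.

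Of the 59 genes, 39 had several probe sets, up to 14 for Rps12, and these gave a check within genes. The fold changes had the same sign in all probe sets of 24 genes, their range was under 0.2 in 33, and the median range was 0.077. In 5 genes, Rpl23a, Rpl27, Rpl41, Rps12 and Rps28, some probe sets had identical values in all arrays. These are 1 measurement, but each was counted above. All 3 probe sets of Rpl41 were identical, so its range of 0 and its single sign give no check. The widest range was that of Rpsa, from -0.22 for the probe set used to 0.25 for its dimmest. Ribosomal protein genes have many near-identical processed pseudogenes, and a probe set cannot tell such copies apart. The probe sets of Rpl12 and Rplp2 list no RefSeq transcript of the gene, so those values are uncertain in identity.

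**Figure D5:**
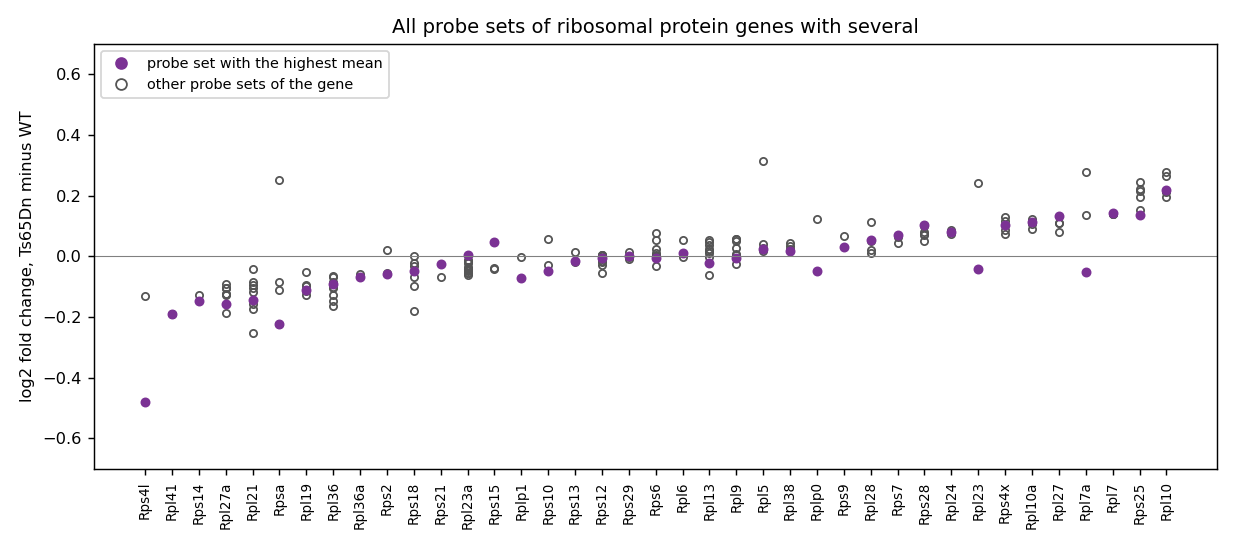
Log2 fold change (Ts65Dn minus WT, vertical axis) of every probe set of the 39 genes with several, with the probe set used filled and the others open. In 33 genes the points span less than 0.2, and Rpsa has the widest span.

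Fold changes of genes with and without these sequence features lay in overlapping ranges. Genes with CGGAAG in the window had a median log2 fold change of -0.023 (n = 32), and those without it 0.024 (n = 15). Genes with a C and T run of 8 or more near the start had -0.027 (n = 14), and those without it -0.015 (n = 33). Rpl14, with a run of 14, had the second highest fold change of the 59, while Rpl7a, with the run of 21 shown above, had -0.05 and Rpl27a, with 20, had -0.16. Rpl26 had the highest fold change with a run of 3 letters just before its annotated start, where the further run in its stretch was not counted.

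Other parts of the translation machinery were set beside the ribosomal proteins. Of the 3 measured ribosomal proteins whose symbols fall outside the rule, 0 were called: Fau had a log2 fold change of -0.005, Rps3a1 0.05, and Rpl7l1, a paralog of Rpl7 known from ribosome assembly, 0.62 (95% interval 0.12 to 1.11, adjusted p = 0.089 in limma). Rpl7l1 had 0.24 after level matching and 0.37 without WT arrays 2 and 3. Of 5 elongation factors, 0 were called and 4 had a positive value, with a median of 0.17. Eef2, which moves the ribosome along the messenger RNA, had 10.65, 10.64, 10.79 and 10.77 in Ts65Dn muscles, against 10.50, 10.46, 9.99 and 10.56 in WT muscles. The Ts65Dn arrays of Eef2 lay above all WT arrays, WT array 3 being the lowest, with a log2 fold change of 0.34 (adjusted p = 0.126 in limma). Eef1a2, the adult muscle form of the factor that delivers transfer RNA, had 0.17 and Eef1a1 0.22, and Eef1b2 had -0.11.

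Of 25 initiation factors, 0 were called and 23 had a positive value. Their median was 0.21, 0.077 after level matching and 0.062 without WT arrays 2 and 3. The smallest p-values belonged to Eif3a and Eif3d, subunits of the factor that binds the small subunit, and to Pabpc1, the poly(A)-binding protein. Eif3a had 9.86, 9.93, 9.86 and 10.07 in Ts65Dn muscles, against 9.71, 9.32, 8.74 and 9.39 in WT muscles, with no overlap and WT array 3 lowest. Its log2 fold change was 0.64 (95% interval 0.23 to 1.05, adjusted p = 0.059 in limma), and 0.38 without WT arrays 2 and 3. Pabpc1 had 0.48 (adjusted p = 0.060 in limma) and Eif3d 0.54 (adjusted p = 0.070). After level matching, Pabpc1 had 0.24 and Eif3d 0.27.

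Of 41 ribosome biogenesis genes, 4 were called higher in Ts65Dn by limma and 0 lower, beside 2.32% and 2.94% of all genes, and 33 had a positive value, or 21 after level matching. The median was 0.21, but 0.008 after level matching, -0.013 with another quantile normalization and 0.073 without WT arrays 2 and 3. Nop58, a core protein of the particles that methylate ribosomal RNA, had 6.74, 6.89, 6.96 and 6.65 in Ts65Dn muscles, against 6.26, 5.74, 6.33 and 6.12 in WT muscles, with no overlap. Its log2 fold change was 0.70 (adjusted p = 0.046 in limma). Ddx21, a nucleolar RNA helicase, had 0.60, Gnl3, a nucleolar GTPase, 0.58, and Ddx10, a helicase of the small-subunit pathway, 1.02. After level matching these were 0.45 for Nop58, 0.21 for Ddx21, 0.30 for Gnl3 and 0.70 for Ddx10, and none of the 4 passed the threshold in limma (adjusted p of 0.116 for Ddx10, 0.152 for Nop58, 0.178 for Gnl3 and 0.361 for Ddx21). Over 19 alternatives Nop58 passed in 7 and Ddx21, Gnl3 and Ddx10 in 5 each, and the 4 had positive values in all 19.

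Of 17 measured regulators of ribosome synthesis around mTOR and Myc, Larp1 was called higher, 0 were called lower and 13 had a positive value, with a median of 0.19. After level matching 9 of the 17 were positive, with a median of 0.10, and without WT arrays 2 and 3 the median was 0.059. Larp1, which binds the C and T run of ribosomal protein messenger RNAs, had 8.10, 7.94, 8.09 and 8.09 in Ts65Dn muscles, against 7.67, 7.24, 7.35 and 7.59 in WT muscles, with no overlap. Its log2 fold change was 0.59 (95% interval 0.31 to 0.88, adjusted p = 0.046 in limma), and 0.31 after level matching (adjusted p = 0.140). It passed the threshold in 5 of 19 alternatives, over which the adjusted p ranged between 0.031 and 0.20. Mtor had 0.43 (adjusted p = 0.077 in limma), and 0.13 after level matching. Akt1s1, an inhibitor of the mTOR complex that was named after its value was seen, had -0.43 (adjusted p = 0.137 in limma). Myc, the factor that drives ribosome production in growing cells, had 0.06 (95% interval -0.69 to 0.81), too wide an interval to bound it within 1.5-fold.

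Gabpa, the trisomic ETS factor subunit, had 9.03, 9.24, 9.16 and 9.20 in Ts65Dn muscles, against 8.68, 8.36, 7.38 and 8.89 in WT muscles. The groups did not overlap and WT array 3 was far below the others. The log2 fold change was 0.83 (95% interval 0.23 to 1.43, adjusted p = 0.073 in limma), and 0.37 without WT arrays 2 and 3.

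The 77 mitochondrial ribosomal protein genes, whose proteins form the separate ribosome inside mitochondria, had a median log2 fold change of 0.030 with 41 above 0 and 0 called. After level matching their median was -0.22, with 17 above 0, against -0.055 with 19 of 59 above 0 for the cytosolic genes.

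Markers of the tissue and of other cell types were read in the same fit. The mean log2 value of the 7 slow muscle markers was 11.65 to 11.78 in Ts65Dn arrays, against 11.57 to 11.72 in WT arrays, with 0 called and a median log2 fold change of 0.055, and that of 7 general muscle genes was 11.47 to 11.59, against 11.30 to 11.53 in WT, with 0 called. Of 5 endothelial markers, 2 were called higher in Ts65Dn, Kdr (0.99) and Emcn (1.18), and Tie1 had -0.04. Their list mean was 5.93 to 6.14 in Ts65Dn arrays, against 5.15 to 5.59 in WT arrays.

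Of 7 macrophage markers, 1 was called higher, Cd68 (2.39), while the list median was 0.085 and Cd14 (-0.21), C1qa (-0.09) and Adgre1 (-0.05) had negative values. The macrophage list mean was 4.71 to 5.36 in Ts65Dn arrays, against 4.43 to 4.66 in WT arrays. Of 6 fibroblast markers, 1 was called higher, Pdgfra (0.62), while 3 were negative, Col1a1 (-0.35), Col1a2 (-0.24) and Col3a1 (-0.06). The fibroblast list mean was 6.68 to 6.91 in Ts65Dn arrays, against 6.52 to 6.65 in WT arrays. After level matching, Kdr and Pdgfra passed the limma threshold and Emcn (adjusted p = 0.055) and Cd68 (adjusted p = 0.094) did not. Without WT arrays 2 and 3, none of these 4 passed, with adjusted p of 0.165 for Kdr, 0.174 for Emcn and Pdgfra and 0.222 for Cd68 in limma, where Emcn had a log2 fold change of 0.73. Of 4 adipocyte, 2 Schwann cell, 2 erythroid and 5 lymphocyte markers measured, 0 were called, and the list means of the groups overlapped in each. The part of these cell types in the values of the ribosomal protein genes was not tested.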

How the data were processed

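The deposited log2 values were made by the authors with Affymetrix Expression Console 1.1 and RMA, per the submitters' processing notes. RMA subtracts background, makes probe distributions equal between arrays and combines the probes of a set, and the log2 scale was read from the range of the values. The genome build is not given in the sources used here. Per the labels' protocols, total RNA was isolated on spin columns and amplified to biotinylated cDNA.

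Of 35556 probe sets, 21789 had 1 symbol, 1621 several and 12146 none. The last groups were not used, and 233 probe sets with several symbols held a symbol of the rule. Symbols were updated by Entrez identifier (21698 probe sets). The 19938 genes were compared with limma 3.58.1 (lmFit, eBayes, two-sided, R 4.3.3) and Benjamini-Hochberg adjustment over all genes at 0.05, without covariates, and checked on simulated data. Replicate numbers were shared by the groups, but same-numbered arrays did not deviate together (r = 0.030, 0.012, 0.091 and 0.070), so no block was used. The number of arrays limits the precision.

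Ribosomal protein genes and comparison lists were chosen with earlier results of these data known. The rule for genes named in the text covers the 6 with the smallest p in each direction, the stalk proteins, Rpsa, paralogs, genes on chromosome 16, genes of Diamond-Blackfan anaemia, Rps6, Rps4x, outlying genes, and up to 3 genes per list. Rpl41, Rpl7, Rpl27a, Rps28 and the genes shown for their starts were named after their values were seen. Alternatives covered normalization, level matching, a filter on dim genes, all probe sets, the replicate block, weights, variance model, adjustment, threshold and arrays left out. Python 3.11.15 with pandas 2.3.3 prepared tables and matplotlib 3.10.9 drew plots.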

Additional observations from a re-analysis of the deposited data

Results flagged for a closer look

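In a group of 4 arrays, a value was listed where its gap to the nearest other array took a larger share of the group's range (the gap ratio) than Dixon's 95% critical value. Chance lists about 1 in 20 groups, and 4 of the 118 groups of ribosomal protein genes were listed. Rpl23 was highest in WT array 2 (gap ratio 0.9048), but the whole WT range was 0.0084. Rpl30 was highest in Ts65Dn array 1 (gap ratio 0.9421), at 3.51, against 3.29 for the next Ts65Dn array. Rps14 was lowest in Ts65Dn array 3 (gap ratio 0.8578), at 11.73, against 11.88 for the next. Rps15a was highest in WT array 1 (gap ratio 0.849), at 8.65, against 8.32 for the next. The log2 fold change of Rps15a was -0.18, and -0.09 without that array.

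Among the comparison genes, Larp1 was lowest in Ts65Dn array 2 (gap ratio 0.9519), at 7.94, against 8.09 for the next. Mtor was highest in Ts65Dn array 4 (gap ratio 0.8331), at 6.98, against 6.51 for the next. Eif3d was lowest in Ts65Dn array 1 (gap ratio 0.9984), at 8.35, against 8.68 in the other Ts65Dn arrays. The listed values fell in 6 different arrays.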

How the results depend on the processing

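The counts of 0 ribosomal protein genes called higher and 0 called lower were also found under another quantile normalization, median centring, cyclic loess, level matching, the filter on dim genes, all probe sets, array weights, trend with robust estimation and adjustment over all probe sets. Under the quantile normalization and the adjustment over all probe sets, 0 of all genes were called, so no other count was possible there. With level matching 89 of all genes were called, with cyclic loess 142 and with array weights 236. With so few calls, a count of 0 among 59 genes says little. At an adjusted p under 0.1, 1 was called higher (Rpl14) and 1 lower (Rps4l), beside 1754 higher and 3207 lower of all 19938 genes. Leaving out 1 array gave 0 higher, and 0 to 1 lower, the 1 being Rpl39l without WT array 1. At an unadjusted p under 0.05, the count was 8 with another quantile normalization, 13 with median centring (all 13 higher), 8 with level matching, and 3 without WT arrays 2 and 3, against 5 in the values reported. The shares of all genes under these settings were 21.9%, 30.8%, 20.9% and 16.8%, against 34.8% in the values reported. The count was 1 to 5 with 1 array left out, with 1 without Ts65Dn array 1, 2 without Ts65Dn array 4 and 3 without WT array 3. Of all genes, 26.4% to 38.7% passed with 1 array left out. The median log2 fold change was 0.1698 with median centring and -0.0811 with cyclic loess. The level-matched median of -0.055 was -0.069 to -0.028 with 1 array left out and -0.016 without WT arrays 2 and 3. The replicate block left 0 called, 5 at an unadjusted p under 0.05 and a median of -0.014, and gave 0 called among all genes. All-gene calls were less stable: 462 higher and 587 lower as reported, 0 with another quantile normalization, 911 and 79 with median centring, 107 and 35 with cyclic loess, 73 and 16 with level matching, 159 and 77 with array weights, 0 over all probe sets, 1 without WT arrays 2 and 3, 2865 in all without WT array 1, 2422 without WT array 4, and 0 to 1 without any other array. The cause of these moves was not tested. Alternatives for level-matched genes and for the unadjusted count were chosen after seeing the data.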

Other observations

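Among the ribosomal protein genes whose dimmest probe set had the highest fold change of the gene, 4 were picked after their values were seen. Rpsa, the small-subunit protein also known as a laminin receptor, had a log2 fold change (Ts65Dn minus WT) of 0.25 on its dimmest probe set (mean level 8.27) and -0.22 on its brightest (11.18). Rpl5, which binds 5S ribosomal RNA, had 0.31 at a mean level of 9.09 and 0.02 at 10.93. Rpl7a, a large-subunit protein, had 0.28 at 8.72 and -0.05 at 10.39. Rpl23, a large-subunit protein, had 0.24 at 8.69 and -0.04 at 11.99. Other genes had a median of 0.31 between levels 7 and 9, of 0.13 between 9 and 11, and of 0.03 above 11. Over the 39 genes with several probe sets, the dimmest lay above the brightest in 23. The 39 include Rpl41, whose probe sets were identical. The part of level in these differences was not tested.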
